A study of Mus musculus with 4 samples.

Results

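Glycosaminoglycans are long, mostly sulfated sugar chains that cells attach to core proteins or release into the matrix, and 54 genes that build, modify or cut these chains, or carry them as glypicans, were followed here. They were found on the array by their names: 62 gene names began with the symbols of the Xylt, B3gat, Ext, Extl, Ndst, Hs2st, Hs6st, Hs3st, Sulf, Gpc, Chsy, Csgalnact, Chst, Has and Hyal families. Of these, Has2as, an antisense transcript, and Gpcpd1, a phosphodiesterase, were left out because they are no enzyme of this kind. Chst4, Chst8, Chst9, Chst10, B3gat1 and B3gat2 were set apart because they act mainly on other glycans. The 54 genes had 70 of the 55681 non-control probes of the array, and the array held 47866 gene names or intergenic RNA probes in all.

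Total RNA came from adipocyte progenitors, the cells from which fat cells form, which had been sorted by flow cytometry out of subcutaneous fat and lysed uncultured. All mice were male, of the FVB strain and 4 weeks old, and no group was treated. Wild-type mice gave 2 samples and Adamts1 transgenic mice gave 2, and every sample was hybridised to its own single-colour Agilent array. Adamts1 encodes a secreted metalloprotease that cleaves proteoglycans of the matrix. The promoter of the transgene and the surface markers of the sort are not given in the sources used here. The labels do not say that the samples came from separate animals, so p-values cover no more than the spread among the samples at hand, which may be technical. In such bulk samples, fewer cells of a type and less RNA per cell cannot be told apart.

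Heparan sulfate and chondroitin sulfate chains start from the same linker, which xylosyltransferases open on a serine of the core protein. Exostosins then extend heparan sulfate, and the growing chain is sulfated by N-, 2-O-, 6-O- and 3-O-sulfotransferases in the Golgi, whereas chondroitin synthases and another set of sulfotransferases make chondroitin sulfate. The pattern of sulfate groups sets which growth factors a heparan sulfate chain holds, and the Sulf enzymes remove 6-O-sulfate groups outside the cell. Hyaluronan is different: it has no core protein and no sulfate, is made at the cell surface by Has enzymes and is cut by hyaluronidases. Heparan sulfate on adipocyte progenitors is known as a co-receptor for fibroblast growth factors, Wnt proteins and bone morphogenetic proteins.

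The array reads each gene through probes of 60 bases. The first 30 bases, 5′ to 3′, of the probes of the 7 genes with an adjusted p under 0.1 are shown because each value below for these genes is the signal of that probe alone. Coordinates are on mm9, per the file headers, and no base is set in capitals because none is singled out.
Hs3st1 chr5:40005207-40005266, minus strand: aacctgcctccaatccaaaatagctctttg
Sulf1 chr1:12850302-12850361, plus strand: atcacatattgtttagcgtacgcttttccc
Sulf1, second probe, chr1:12849507-12849566, plus strand: aaggatgcttttgaagatcaattgcgtcct
Sulf2 chr2:165899667-165899726, minus strand: gtaggggaatctcactaatatgaaatcccg
Gpc1 chr1:94756711-94756770, plus strand: cggtgtcagtggataatgtgtgttctttga
Gpc6 chr14:118375311-118375370, plus strand: gcattctcttaacataacaactcacaacaa
Chst7 chrX:19674422-19674481, plus strand: catcagcagatgtctggacaaaaccatcaa
Chst1 chr2:92455254-92455313, plus strand: atcttagaagtttctgattgatcttggggt
The longest run of bases shared by probes of different genes among the 54 was 11. Exon and UTR positions on that build were not used here.

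Values are log2 processed signals minus the 75th percentile of each array's non-control probes, so 0 is that percentile. A gene was represented by its probe with the highest mean, and was tested if this probe was well above background on both arrays of at least 1 group. Of the 54 genes, 40 were tested and 14 were not. Of the 40, 35 were well above background on all 4 arrays, 4 on 3 arrays and 1 on 2 arrays. Ndst3, Hs3st6, Chsy3, Chst3 and Hyal6 passed through the transgenic arrays alone, and none passed through the wild-type arrays alone. For Hs3st6, Chsy3, Chst3 and Hyal6 it was wild-type array 1 that was not well above background. The lowest signal that counted as above background was -3.60 on that array and -4.94 on wild-type array 2. It was -4.98 and -4.93 on transgenic arrays 1 and 2. No probe was saturated.

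Of the 40 tested genes, 3 fell in transgenic progenitors and none rose by limma with Benjamini-Hochberg adjustment over all 24518 tested features. These were Chst1, Chst7 and Sulf1, a sulfotransferase of keratan sulfate, a sulfotransferase of chondroitin sulfate and an extracellular sulfatase of heparan sulfate. They make up 7.5% of the tested genes, where 1.73% of all features were called, 0.759% lower and 0.967% higher. Unadjusted limma p-values lay under 0.05 for 19 of the 40 genes, a larger share than the 4660 of 24518 features (19.0%). The transgenic and wild-type arrays did not overlap for 29 of the 40 genes, which is 72.5%, against 53.1% of all features. Of these genes, 13 were higher in the transgenic samples (24.5% of all features were) and 16 lower (28.6% of all features). Among the 13 were Ndst3, Chsy3, Chst3 and Hyal6, which passed the filter through the transgenic arrays alone. Such passing favours a separation in that direction. Of all tested features, 17.4% passed this way. The median log2 difference, transgenic minus wild-type, was -0.07 over the 40 genes and -0.016 over all features, and the median absolute difference was 0.27 and 0.21.

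**Figure D1:**
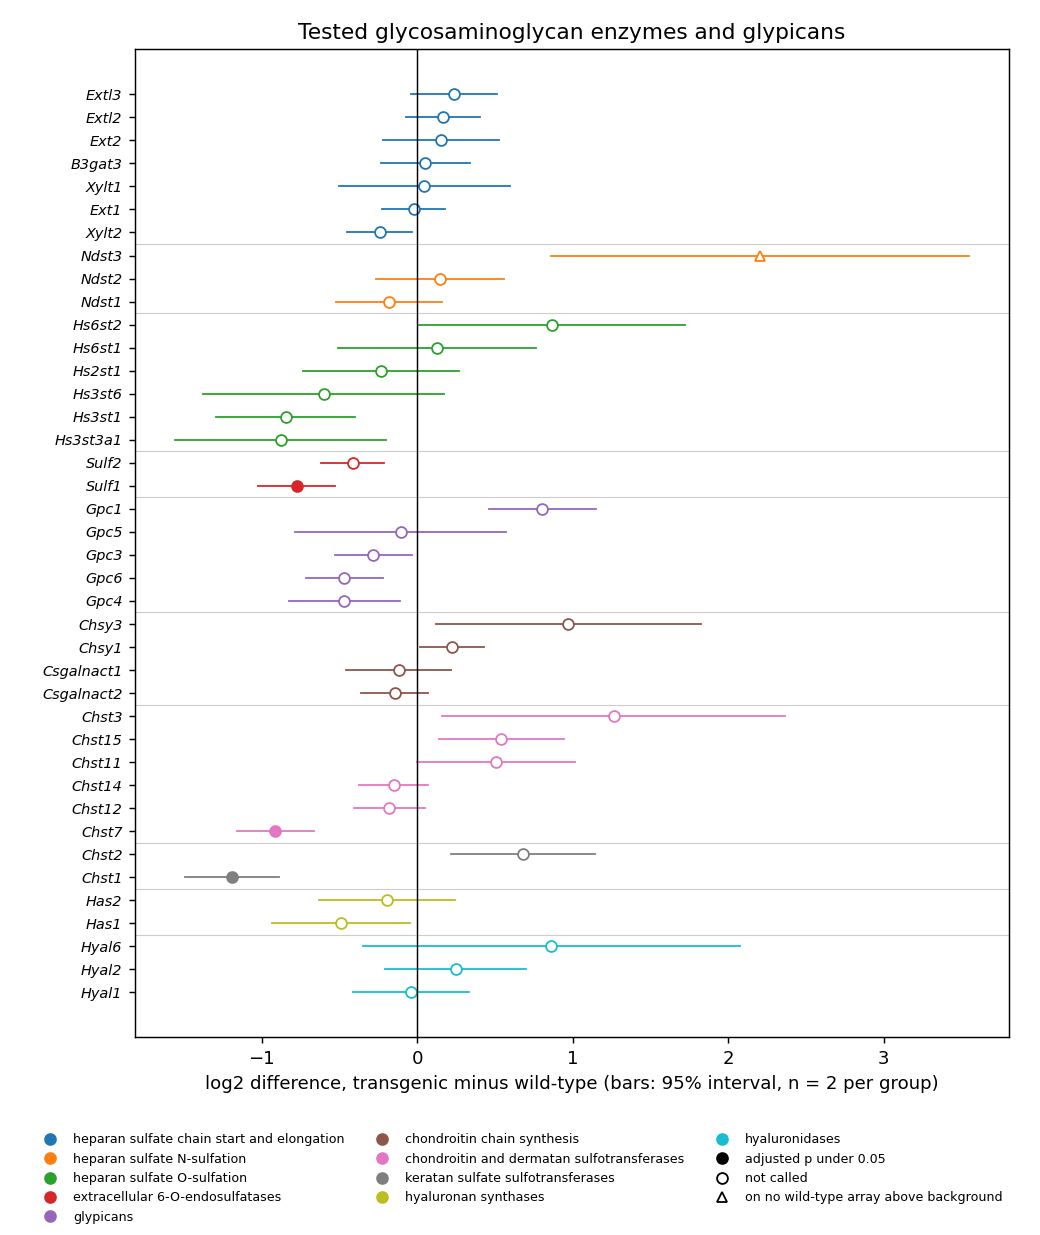
Log2 difference between transgenic and wild-type samples (x axis) for each of the 40 tested genes (y axis), grouped by role, with the 95% interval from limma as a bar and n = 2 arrays per group. Filled points mark the 3 genes with an adjusted p under 0.05, which all lie below 0, and the triangle marks Ndst3, which was above background on no wild-type array, so that its difference is no measured size.

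The number of arrays limits the precision: 15 of the 40 genes had a 95% interval within 1.5-fold either way and 26 had one within 2-fold. An exact permutation test of 2 arrays against 2 cannot give a 2-sided p below 0.333. Wild-type array 1 stood apart, with 47.0% of spots well above background against 55.5% to 57.0% on the other arrays. The SD of the difference between replicate arrays over all tested features was 0.58 for the wild-type pair and 0.35 for the transgenic pair. Adamts1 itself had values of 6.65 and 6.73 on the wild-type arrays and 6.77 and 6.82 on the transgenic arrays (log2 difference 0.11 ± 0.09 SE, limma adjusted p = 0.573). Whether its probe lies in the transcribed part of the transgene is not known from the sources used here, so this value does not check the labels.

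All 14 progenitor markers with a probe were tested, and 2 of them, Cd24a and Pi16, fell. The median log2 difference over the 14 was -0.31. It was below 0 for 9 markers and above 0 for 5, at most 0.93. The 14 markers summed, in units of the 75th percentile, to 3393 and 2795 in wild-type and 2202 and 2169 in transgenic samples. Markers of other cell types also differed: 7 of 13 tested macrophage and myeloid markers rose, as did 3 of 7 of smooth muscle and pericytes. So did 1 of 9 of mature adipocytes (Fabp4) and 1 of 10 of endothelium (Egfl7). Among all features, 0.967% were called higher and 0.759% lower. Summed macrophage signal was 57.2 and 56.6 in wild-type and 63.9 and 62.1 in transgenic samples, with Cd163 and Fcgr1 not well above background on any array. Itgam and Csf1r make up most of that sum. The median log2 difference over the 13 tested macrophage markers was 1.90, 12 of the 13 were above 0, and 7 had passed the filter through the transgenic arrays alone. For smooth muscle and pericytes the sums were 12.1 and 11.1 against 15.3 and 16.5, for mature adipocytes 292 and 287 against 494 and 507 with Lep not well above background on any array, and for endothelium 22.8 and 18.3 against 19.2 and 18.2. The median difference for smooth muscle and pericytes was 0.86. It was 1.57 for mature adipocytes (1.17 with unmeasured wild-type values at their bound) and 1.34 for endothelium (0.92 likewise). Of 10 endothelial markers, 8 were above 0. The filter was passed through the transgenic arrays alone by 4 endothelial, 3 mature adipocyte and 1 smooth muscle or pericyte marker. For such markers the filter itself favours a positive difference. Of Schwann cell markers 1 of 5 tested fell (Mbp) and of mesothelial and epithelial markers 1 of 3 (Krt19), with Msln, Upk3b and Epcam not well above background, while none of 5 lymphocyte and 2 erythroid markers was called. The part of these cells in the differences of the 54 genes was not tested.

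Among the enzymes that start and extend heparan sulfate, none of 7 tested genes changed, and their differences spanned -0.24 to 0.24. Xylt2, a xylosyltransferase that opens the linker shared by heparan and chondroitin sulfate, had values of 2.79 and 2.83 in wild-type samples and 2.58 and 2.56 in transgenic samples. Both transgenic values lay below both wild-type values, but the difference of -0.24 ± 0.08 (SE, n = 2 per group) did not pass (limma adjusted p = 0.216). The second Xylt2 probe, also well above background on all arrays, read 0.02 and 0.25 against 0.08 and 0.01, so that its groups overlapped. Extl3, which adds the first N-acetylglucosamine that commits a chain to heparan sulfate, had values of 3.38 and 3.60 against 3.67 and 3.79. Its transgenic samples were the higher ones without overlap (0.24 ± 0.11, adjusted p = 0.314).

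The polymerase subunit Ext1 was the flattest gene of this group, with 3.78 and 3.84 in wild-type samples and 3.79 on both transgenic arrays. Its 95% interval ran from 0.854-fold to 1.14-fold, and its sign changed between processing settings. The interval of the other subunit, Ext2, ran from 0.86-fold to 1.44-fold. Differences of Xylt1, the glucuronosyltransferase B3gat3 that completes the linker, and Extl2 were 0.05, 0.05 and 0.16.

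N-deacetylase and N-sulfotransferase enzymes (Ndst) replace acetyl by sulfate groups and so open a heparan sulfate chain to further modification. None of the 3 tested genes was called. Ndst1, the broadly expressed form, read 1.84 and 2.17 in wild-type and 1.78 and 1.87 in transgenic samples, groups that overlapped (-0.18 ± 0.14, limma adjusted p = 0.512). All 3 Ndst1 probes had a negative difference. On the other probes, also well above background on all arrays, the groups did not overlap, with differences of -0.33 and -0.53. The mean of the probes differed by -0.35 (limma adjusted p = 0.257). Ndst2 differed by 0.15 with overlapping groups. Ndst3, known mainly from brain, was well above background on both transgenic arrays, at -4.25 and -4.41, and on no wild-type array, where its surrogate values were -5.91 and -7.16. No fold is given for it because its transgenic mean did not exceed the mean, over the wild-type arrays, of the lowest signal that counted as above background, and its limma adjusted p was 0.126. With normexp background correction its difference was 0.06.

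O-sulfotransferases act next. None of 6 tested genes was called, and 4 of the 6 had negative differences with a median of -0.42. Hs3st1 makes the rare 3-O-sulfate of the antithrombin-binding site of heparin. Its wild-type values were -0.33 and -0.64 and its transgenic values -1.42 and -1.25, so both transgenic arrays lay lower by more than the wild-type arrays differed. The 1.80-fold lower level (-0.84 ± 0.18; 95% interval 1.32- to 2.45-fold) missed the threshold (limma adjusted p = 0.0969). It passed without wild-type array 2 (adjusted p = 0.0366), but not without transgenic array 1 or 2 (0.369 and 0.238). Another 3-O-sulfotransferase, Hs3st3a1, read -3.16 and -3.08 against -4.15 and -3.84, again without overlap (-0.88 ± 0.27, adjusted p = 0.182). For Hs3st6, of the same enzyme class, 1 of 2 wild-type arrays was well above background and the difference was -0.60.

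The 6-O-sulfotransferases did not follow one direction. Hs6st2 read -2.01 and -2.87 in wild-type and -1.38 and -1.77 in transgenic samples, higher without overlap (0.87 ± 0.34, limma adjusted p = 0.260). Hs6st1 had probes of opposite sign: the brighter one differed by 0.13 and the other, at -1.32 and -1.63 against -1.81 and -1.99, by -0.42. It was the 1 gene of 5 with several probes well above background on all arrays for which the probes disagreed. Hs2st1, which sulfates uronic acid in the chain, differed by -0.23.

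Of the genes that act on heparan sulfate, the called one belongs to the extracellular sulfatases, which trim 6-O-sulfate from finished chains and thereby alter Wnt and fibroblast growth factor signalling. Sulf1 fell in transgenic progenitors. Its wild-type values were 5.16 and 4.97 and its transgenic values 4.28 and 4.31, where the transgenic pair lay well apart from the wild-type pair. The level was 1.71-fold lower (95% interval 1.44 to 2.03; -0.77 ± 0.10 SE, n = 2 per group, limma adjusted p = 0.0384). The second Sulf1 probe read 1.78 and 1.92 against 1.26 and 1.34, a difference of -0.54, and the groups did not overlap on it either. Without transgenic array 1 the adjusted p of Sulf1 was 0.150 and without transgenic array 2 it was 0.133, at differences of -0.76 and -0.79. It was 0.0597 when genes above background on any array were tested and 0.129 without the intensity trend.

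Sulf2, the other sulfatase of this pair, had values of 4.09 and 4.07 against 3.69 and 3.64. Both transgenic arrays were lower, by far more than the replicates differed, yet the 1.33-fold difference (95% interval 1.16 to 1.53) was not called (-0.41 ± 0.08, limma adjusted p = 0.0810). With 1 array left out, its difference ran from -0.44 to -0.39.

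**Figure D2:**
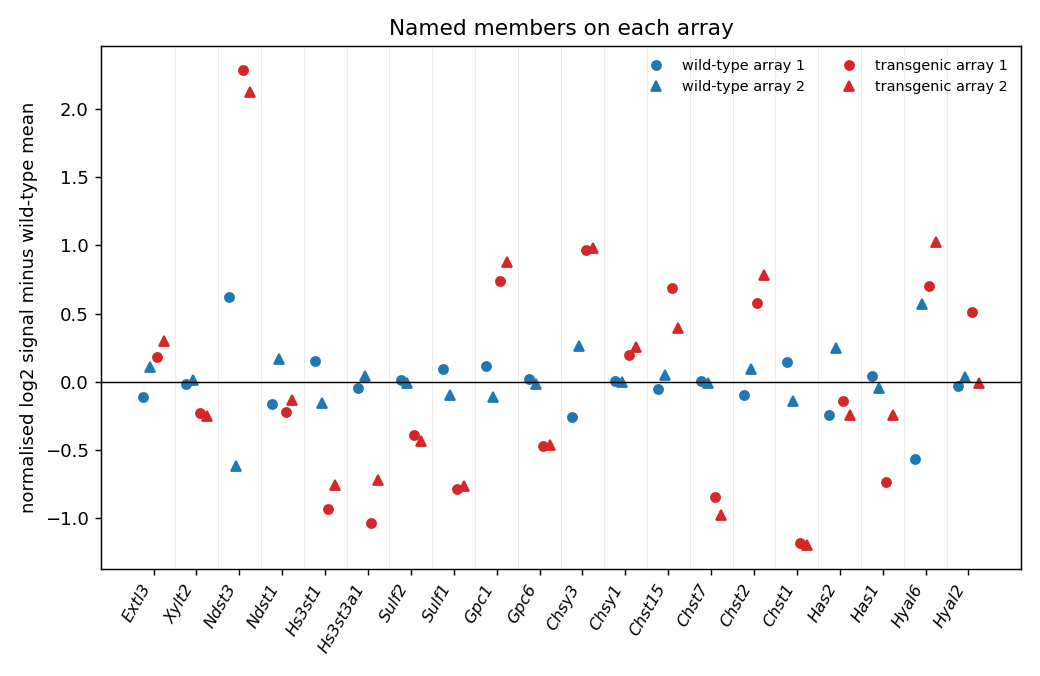
Normalised log2 signal of 20 named genes on each of the 4 arrays (points), after subtracting the wild-type mean of each gene (y axis; 0 is that mean). Both transgenic arrays (red) of Chst1, Chst7, Sulf1, Sulf2, Hs3st1 and Gpc6 lie below both wild-type arrays (blue). Those of Gpc1 lie above them, as do those of Hyal6, whose wild-type arrays lie far apart. The groups of Has2, Hyal2 and Ndst1 overlap.

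Glypicans are core proteins that carry heparan sulfate and are tied to the cell surface by a lipid anchor. None of 5 tested glypicans was called, and 4 of the 5 had negative differences with a median of -0.28. Gpc1 differed from the other 4 in sign. It read 0.04 and -0.19 in wild-type samples and 0.66 and 0.80 in transgenic samples, a 1.75-fold higher level without overlap (95% interval 1.38 to 2.22; 0.81 ± 0.14). Its limma adjusted p was 0.0644, and it lay under the threshold with normexp background correction (0.0303), with no filter on dim probes (0.0364) and without wild-type array 1 or 2 (0.0402 and 0.0417). Without transgenic array 1 or 2 it was 0.182 and 0.255.

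Gpc6 lay on the other side, at 1.24 and 1.21 against 0.75 and 0.76. Replicates agreed closely and the groups did not overlap, for a 1.38-fold lower level (95% interval 1.16 to 1.64; -0.47 ± 0.10, limma adjusted p = 0.0979). Gpc4 read -0.45 and -0.28 against -0.82 and -0.84, also without overlap (-0.47, adjusted p = 0.177). Its second probe, above background on 3 arrays, differed by 0.26, and the mean of both probes by -0.11. Gpc3, whose loss causes an overgrowth syndrome, read 4.03 and 3.84 against 3.65 and 3.66 (-0.28, adjusted p = 0.219). With 1 array left out, its difference ran from -0.38 to -0.19. Gpc5 had overlapping groups and a difference of -0.11.

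Chondroitin sulfate synthesis showed no called gene among 4. Chsy1, a chondroitin synthase that polymerises the chain, read 3.05 and 3.04 in wild-type and 3.24 and 3.30 in transgenic samples. The transgenic pair was higher without overlap by 1.17-fold (95% interval 1.01 to 1.35; 0.22 ± 0.08, limma adjusted p = 0.235). Its second probe, with a difference of 0.23, shares 44 bases with the first and so is not a separate reading. Chsy3 was well above background on 1 of 2 wild-type arrays, with -5.11 and -4.59 against -3.88 and -3.87 (0.97 ± 0.34, adjusted p = 0.217). With normexp background correction the difference was 0.03. Csgalnact1 and Csgalnact2, which start the chondroitin chain, differed by -0.12 and -0.14.

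Of 6 tested sulfotransferases of chondroitin and dermatan sulfate, 1 fell. Chst7, which places sulfate at the 6-O position of N-acetylgalactosamine, read 2.10 and 2.09 on the wild-type arrays and 1.25 and 1.12 on the transgenic arrays. The wild-type replicates nearly coincided and both transgenic values lay far below them. The level was 1.88-fold lower (95% interval 1.58 to 2.24; -0.91 ± 0.10 SE, n = 2 per group, limma adjusted p = 0.0288). Without transgenic array 1 or 2 the adjusted p was 0.0805 and 0.0974, and without the intensity trend it was 0.106.

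Chst3 makes the same 6-O-sulfate as Chst7 but its difference had the opposite sign. It read -4.94 and -3.91 against -2.92 and -3.40, with 1 of 2 wild-type arrays well above background (1.27 ± 0.44, limma adjusted p = 0.216), and its difference was 0.15 with normexp background correction. Chst15, which adds a second sulfate to chondroitin 4-sulfate, read -0.77 and -0.67 against -0.03 and -0.33. Its transgenic values were higher without overlap (1.46-fold, 95% interval 1.10 to 1.92; 0.54 ± 0.16, adjusted p = 0.170), and its second probe, above background on 3 arrays, differed by 1.11. Chst11, a chondroitin 4-O-sulfotransferase, differed by 0.51 (adjusted p = 0.266), while Chst12, of the same activity, and the dermatan enzyme Chst14 differed by -0.18 and -0.15. For all 6 of these genes the groups did not overlap, 3 in each direction, against 53.1% of all features. Chst3, among the higher ones, had passed the filter through the transgenic arrays alone, which favours such a separation.

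Chst1 had the largest measured decrease of the 40 genes. It sulfates galactose in keratan sulfate, a chain found on some cell surface and matrix proteins. Its values were 5.71 and 5.42 in wild-type samples and 4.38 and 4.36 in transgenic samples, with both transgenic arrays more than 1 log2 unit below the lower wild-type array. The level was 2.28-fold lower (95% interval 1.85 to 2.81; -1.19 ± 0.12 SE, n = 2 per group, limma adjusted p = 0.0270). The adjusted p was 0.0752 without transgenic array 1, 0.0650 without transgenic array 2 and 0.102 without the intensity trend. Chst2, which sulfates N-acetylglucosamine in keratan sulfate and in selectin ligands, had a difference of the opposite sign. It read -1.99 and -1.81 against -1.32 and -1.11, a 1.61-fold higher level without overlap (95% interval 1.17 to 2.21; 0.68 ± 0.18, adjusted p = 0.148). The second Chst2 probe was not well above background on any array.

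**Figure D3:**
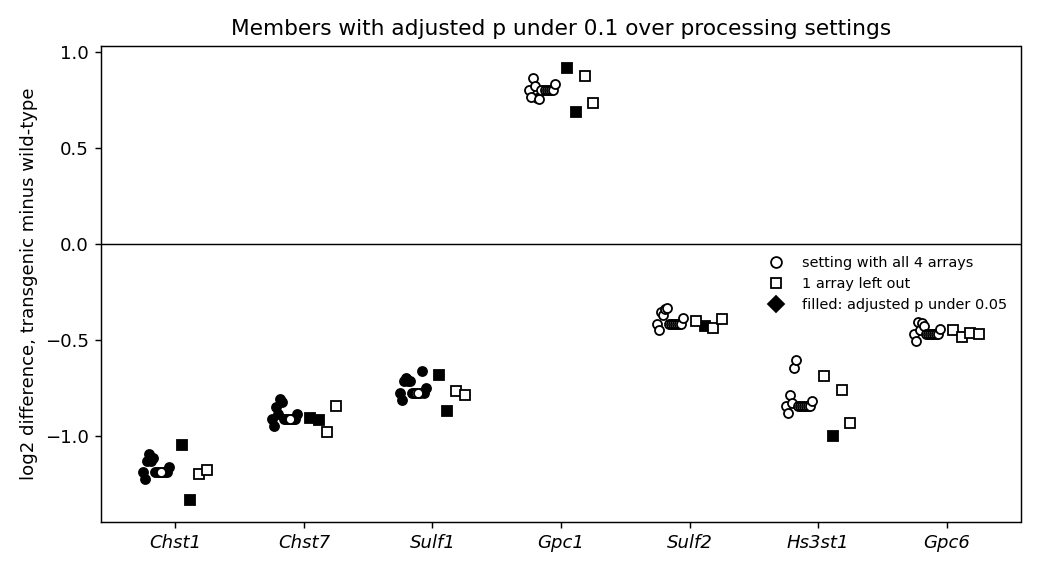
Log2 difference between transgenic and wild-type samples (y axis) of the 7 genes with an adjusted p under 0.1 (x axis), under each processing setting with all 4 arrays (circles; the fit with a replicate block is not drawn) and with 1 array left out (squares). Filled symbols have an adjusted p under 0.05, and no gene changes sign: Chst1 stays between -1.33 and -1.05 and Gpc1 between 0.69 and 0.92.

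Neither tested hyaluronan synthase was called. Has1 read 6.99 and 6.90 in wild-type and 6.21 and 6.70 in transgenic samples. Both transgenic values were the lower ones, but the transgenic arrays differed from each other by as much as the groups did (-0.49 ± 0.18, 95% interval 1.03- to 1.91-fold lower, limma adjusted p = 0.230). Has2, the main synthase of most connective tissue cells, read 3.68 and 4.17 against 3.78 and 3.68, with overlap (-0.19 ± 0.17, adjusted p = 0.582). Its difference was 0.05 without wild-type array 2.

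None of 3 tested hyaluronidases was called. Hyal2, which is anchored to the cell surface and cuts long hyaluronan, read 2.80 and 2.87 against 3.34 and 2.82, where transgenic array 1 alone was high (0.25 ± 0.18, limma adjusted p = 0.493). Without that array the difference was -0.011. The lysosomal enzyme Hyal1 differed by -0.04, with a 95% interval from 0.753-fold to 1.26-fold. Hyal6 was well above background on 1 of 2 wild-type arrays and read -5.67 and -4.53 against -4.39 and -4.07 (0.86 ± 0.48, adjusted p = 0.389). Its wild-type arrays differed by more than the groups did, and its difference was -0.11 with normexp background correction.

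The 14 genes that were not tested were Extl1, Ndst4, Hs6st3, Hs3st2, Hs3st3b1, Hs3st4, Hs3st5, Gpc2, Chst13, Chst5, Has3, Hyal3, Hyal4 and Hyal5. Of these, 10 were well above background on no array, so that only a bound on their level was measured. The other 4 were so on 1 array: Hs6st3 at -4.31 and Chst13 at -4.58 on transgenic array 2, Chst5 at -1.01 on wild-type array 1 and Hyal4 at -4.34 on wild-type array 2.

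Several of the 54 genes are neighbours in the genome, which the choice by name did not use. Hyal1, Hyal2 and Hyal3 have probes within 14.6 kb on chromosome 9, where Hyal2 and Hyal1 differed by 0.25 and -0.04 and Hyal3 was not tested. Hyal4, Hyal5 and Hyal6 lie within 132.6 kb on chromosome 6, and Hyal6 was the one tested. On chromosome X the probes of Gpc4 and Gpc3 lie 219 kb apart, with differences of -0.47 and -0.28, and that of Hs6st2, with 0.87, lies 665.5 kb from that of Gpc4. Hs3st3b1 and Hs3st3a1 on chromosome 11 are 638 kb apart, and the latter was tested. On chromosome X, Gpc4 and Gpc3 shared a sign and Hs6st2 had the other one. None of the differences of these neighbours was called, and those of Hyal1 and Hyal2 changed sign in some fits.

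The rest of the pathway was read from lists of other genes of glycosaminoglycan metabolism, drawn up by function. Of 16 tested genes for the linker and the supply of activated sugars and sulfate none was called, with a median difference of -0.09 and 12 of 16 below 0. The smallest p was that of Fam20b, a xylose kinase of the linker, at 1.38 and 1.27 against 0.79 and 0.97 (-0.45 ± 0.12, limma adjusted p = 0.141). The 6 other polymerases and modifying enzymes all had negative differences with a median of -0.33, and none was called. Glce, the epimerase that turns glucuronic into iduronic acid in heparan sulfate, read 4.04 and 4.11 against 3.33 and 3.62 (-0.60 ± 0.12, adjusted p = 0.0892). Of 15 tested genes for degradation, 14 had negative differences, with a median of -0.15, and none was called. Heparanase (Hpse), which cuts heparan sulfate chains, read 3.87 and 3.68 against 3.08 and 3.17 and came nearest (-0.64 ± 0.10, adjusted p = 0.0549). Over all features the median difference was -0.016 and 47.8% were above 0.

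**Figure D4:**
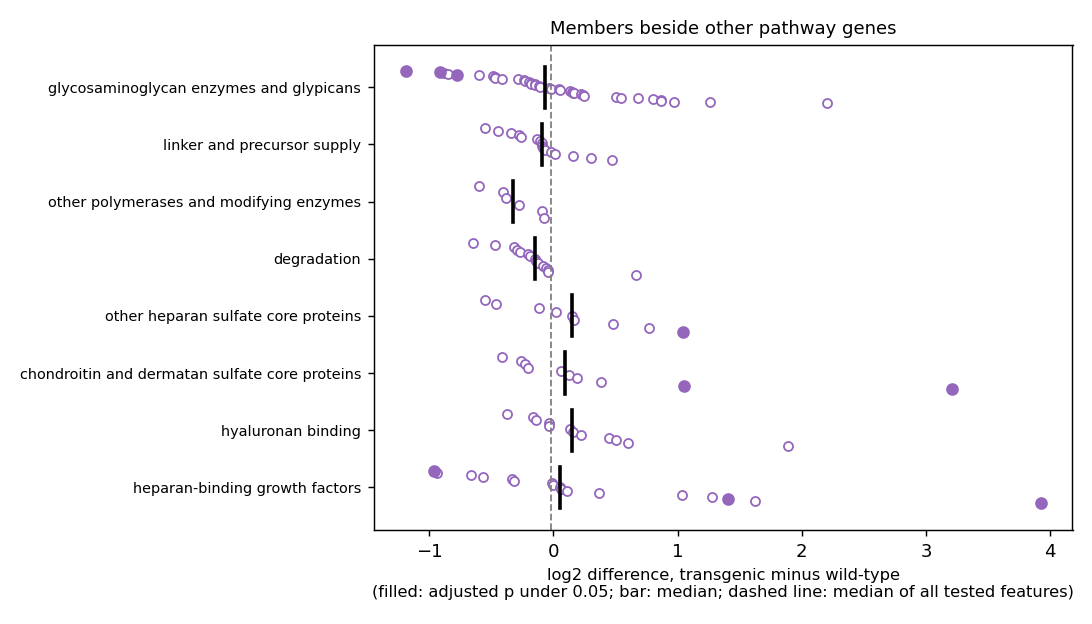
Log2 differences between transgenic and wild-type samples (x axis) of the tested genes of each list (y axis), 1 point per gene, with the list median as a black bar and the median of all features, -0.016, as a dashed line. Filled points have an adjusted p under 0.05: 3 lower among the enzymes and glypicans, none in the linker, polymerase, degradation and hyaluronan-binding lists, and 6 in the core protein and growth factor lists.

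The proteins that carry or bind the chains included called genes in both directions. By comparison, 0.967% of all features were called higher and 0.759% lower. Of 9 other heparan sulfate core proteins 1 rose: Col18a1, a basement membrane collagen, was at 4.00 and 4.05 in wild-type and 5.06 and 5.07 in transgenic samples (2.06-fold, 1.04 ± 0.08, limma adjusted p = 0.0191). Of 10 tested chondroitin and dermatan sulfate core proteins 2 rose. The small proteoglycan Bgn read 3.58 and 3.93 against 4.77 and 4.84 (2.07-fold, adjusted p = 0.0411). Cd74, the invariant chain of class II antigen presentation, read -2.01 and -2.21 against 1.09 and 1.10 (adjusted p = 0.0128), and it is also 1 of the 7 macrophage markers that rose. None of 12 tested hyaluronan-binding genes was called, and the smallest p was that of the receptor Lyve1, also a macrophage marker, which was well above background on no wild-type array (at least 2.14-fold higher, adjusted p = 0.0638, with measured values of -5.19 and -4.83 against -3.31 and -2.93). An "at least" fold is set against a wild-type level. On each wild-type array this level is the measured value or the lowest signal that counted as above background, whichever was higher.

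Among 17 tested growth factors that bind heparan sulfate, 2 rose and 1 fell, where 0.967% of all features were called higher and 0.759% lower. Fgf10, a fibroblast growth factor of mesenchymal cells, read 1.25 and 1.33 against 2.63 and 2.76 (2.65-fold, limma adjusted p = 0.0162). The other riser, Ptn, had a log2 difference of 3.92. Bmp2, a bone morphogenetic protein, read 3.73 and 3.63 against 2.68 and 2.76 (1.95-fold lower, limma adjusted p = 0.0246). Of the 17 genes, 2 passed the filter through the transgenic arrays alone, and all 17 were well above background on at least 1 wild-type array.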

How the data were processed

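The 4 scanner files that the authors deposited give a processed intensity per spot, background-subtracted and detrended (Agilent Feature Extraction, version 10.7.3.1, design 028005, per the file headers). The authors also deposited a table of log2 values, and how these were made was not stated in any source at hand. Its columns correlated at 0.9998 or more with the 75th-percentile-shifted log2 signal centred on each probe's median over arrays, with column medians of 0.195, -0.021, -0.045 and 0.019. Its scale and centring are known from this comparison alone. It served as an alternative.

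Control and outlier spots were left out and spots of a probe averaged. Names followed a RefSeq gene table (GRCm38.p6, names only). The test was limma 3.58.1 under R 4.3.3 (lmFit, then eBayes with an intensity trend, 2-sided, 2 residual and 3.34 prior degrees of freedom). All 4 arrays shared 1 slide and 1 scan day. The fit was also run on simulated data. These had independent normal errors with variances drawn from the prior that limma fitted here, so the run does not test the assumptions of the fit.

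The genes, gene lists and tests were chosen with earlier results of these data known. Named genes were all called ones and the 2 with the smallest p in each role group, and in each pathway list the called genes and the smallest p. Other genes were named for opposite probes, for groups that did not overlap, or to account for every member.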

Additional observations from a re-analysis of the deposited data

How the results depend on the processing

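The log2 differences of Chst1, Chst7 and Sulf1 stayed negative under all alternatives. Over the 14 fits with all 4 arrays they ran from -1.23 to -1.09, -0.95 to -0.81 and -0.81 to -0.66, and the genes were called in 13, 13 and 12 of these. Without the intensity trend limma called 0 of the 40 genes (14 had an unadjusted p under 0.05) and 0 features (4124 unadjusted), against 423 features otherwise. Features called were 277 with normexp and quantile normalization, 695 with no filter, 187 when 1 array above background sufficed, and 774 with the replicate number as a block. Leaving out 1 array changed which genes passed the filter and gave 90 to 3998 features and 0 to 12 of the genes then tested: 0 of 42 without transgenic array 1 (8 unadjusted), 0 of 40 without transgenic array 2 (10 unadjusted), 6 of 41 without wild-type array 1 (Hyal4 among them) and 12 of 41 without wild-type array 2 (Chst5 among them). In these fits the lone array is assumed to vary like the others. The block left the same 3 genes called. Same-numbered arrays did not deviate together over features (correlation 0.0032 over 2 pairs). So few arrays cannot show whether same-numbered samples were paired. With all 4 arrays the sign turned in some settings for Hyal6 (-0.11 with normexp), Ext1, Hs6st1, Hyal1 and Xylt1. With 1 array left out, Has2 ran from -0.44 to 0.052, turning without wild-type array 2. Hyal2 ran from -0.011 to 0.51, turning without transgenic array 1. In such fits the sign also turned for B3gat3, Csgalnact1, Ext1, Gpc5, Hs6st1, Hyal1, Ndst2 and Xylt1. Of 357 values of named genes 334 kept side and sign. The share of called features that were higher was 56.0%, and 49.7% to 66.3% under other scalings. Signal over background limits what was measured for the 14 untested genes. The causes were not tested.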

Other observations

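Some probes were bright on a single array. The second probe of Gpc5 read -1.80 on transgenic array 1 and -5.72, -6.50 and -7.05 on wild-type arrays 1 and 2 and transgenic array 2. The Chst5 probe read -1.01 on wild-type array 1 and -6.83, -6.87 and -6.81 on wild-type array 2 and transgenic arrays 1 and 2. Hs6st3 read -4.31 on transgenic array 2 through 1 probe, while its other probe was not well above background there.

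Of the 6 relatives that act mainly on other glycans, Chst10, which sulfates the HNK-1 epitope of neural glycans, was well above background on all arrays, at -0.52 and -0.43 in wild-type and -0.38 and -0.60 in transgenic samples (limma adjusted p = 0.960). B3gat1, which makes the glucuronic acid of the same epitope, read -2.57 on transgenic array 2 and -5.60, -5.34 and -5.13 on the others. Chst4, Chst8, Chst9 and B3gat2 were well above background on no array.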
